A study of Mus musculus with 10 samples.

Results

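Polycomb group proteins keep developmental genes silent in embryonic stem (ES) cells. They act in 2 kinds of complex: Polycomb repressive complex 1 (PRC1), which attaches ubiquitin to histone H2A, and Polycomb repressive complex 2 (PRC2), which methylates a lysine of histone H3. Described here are 10 genes for subunits of these complexes, namely Cbx2, Cbx7, Kdm2b, Ring1, Rnf2 and Bmi1 of PRC1 and Ezh2, Eed, Suz12 and Jarid2 of PRC2. They were taken by name: every probe whose gene name in the scanner files was one of the 10 was used, which gave 12 of the 39429 gene probes. A gene entered the tests if, for at least 1 group of lines of one genotype and sex, all its arrays read a probe well above local background. Of the members 9 of 10 met this, and Cbx7 was the exception. The array held 31539 gene names. With probes named through RefSeq where possible there were 31660 genes, of which 20663 met it.

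The cells were mouse ES cell lines from a mixed C57/BL/6 background, grown with LIF on irradiated feeder fibroblasts that were depleted by preplating. Tet1 and Tet2 encode enzymes that oxidise methylated cytosine in DNA, and the study compared lines that lacked Tet1 (T1KO), Tet2 (T2KO) or both (double knockout, DKO) with wild-type lines (WT). The 11 labelled lines were WT 6 and WT 92 (male), WT 7 and WT 94 (female), DKO 51 and DKO 61 (male), DKO 60 and DKO 59 (female), T1KO 99 and T1KO 65 (male) and T2KO 16 (male). On 10 two-colour Agilent arrays, 4 pairs of a DKO and a WT line of the same sex were hybridised together, always with DKO in Cy5 and WT in Cy3, and T2KO 16 was hybridised in Cy5 against T1KO 65 in Cy3. T1KO 99 lay in Cy3 beside a Cy5 sample that the labels exclude for its genotype, and that sample entered no comparison of genotypes. It did enter the normalization and the differences between repeat arrays. No dye was swapped, so dye and genotype cannot be told apart in DKO over WT. By the first number of the array barcodes, male pairs, female pairs and the T1KO and T2KO arrays each lay on a slide of their own.

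The targeted genes followed the labels. Tet1 lay at 12.78 to 13.13 (log2 level) in WT, 12.91 in T2KO, 10.92 and 10.997 in T1KO and 10.52 to 11.08 in DKO lines, and Tet2 at 11.51 to 12.05 in WT, 11.43 to 11.58 in T1KO, 9.40 to 10.12 in DKO and 9.74 in T2KO. All 15 ES cell markers examined were well above background in every labelled channel. So were 19 of 20 feeder fibroblast markers. The median log2 ratio of the feeder markers was -0.10, -0.41, 0.91 and 0.03 in the pairs DKO 51/WT 6, DKO 61/WT 92, DKO 60/WT 7 and DKO 59/WT 94, and that of 8 primed epiblast markers was -0.37, 0.58, 1.12 and -0.01. The pair DKO 60/WT 7 was therefore the highest for both lists. The part of feeder RNA and of priming in the values below was not tested. In such bulk RNA, more cells of a type and more RNA per cell cannot be told apart.

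In PRC1, Ring1 and Rnf2 are the alternative ubiquitin ligases, Bmi1 is one of the Pcgf proteins that partner them, Cbx2 and Cbx7 carry the chromodomain that reads methylated histone H3, and Kdm2b binds unmethylated CpG-rich DNA through a zinc finger. In PRC2, Ezh2 is the methyltransferase, Eed and Suz12 are core partners it needs, and Jarid2 is an accessory subunit that binds DNA and nucleosomes. These are textbook roles and no result of the arrays. A level below is the log2 intensity of a probe after normalization, and a log2 ratio is DKO over WT within a pair. Levels serve to compare lines for the same probe, since probes differ in how well they hybridise.

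The probes decide what the arrays can see, so the first 30 of the 60 bases of those behind the main findings are shown, 5′ to 3′ as listed in the scanner files, with G and C in capitals. They cover Cbx2 and Kdm2b, which rose in DKO lines, Rnf2 and Bmi1, which separated the lines in other ways, and Cbx7, which was not measured.
Cbx2: CCttttattttaCtGGttaCGtCaGtCCCa
Kdm2b, second probe: tGtCCaatttGGGCaaGtGGaaGaGaaaCt
Rnf2: ttGataGaaGGaaGaGaCttCCGGtaCCat
Bmi1: GCtttGtCttGCttGtaGCCattaaatCat
Bmi1, second probe: tGGtGaatttaaCtCatttttCtaGaCttt
Cbx7: ttaGatGatttatCtGataGatGaGGCaaa
By the array's own design positions on mouse build mm9, the Cbx2 probe lies at chr11:118892363-118892422, the second, dimmer Kdm2b probe at chr5:123321714-123321773, the Rnf2 probe at chr1:153316987-153317046, the Bmi1 probes at chr2:18607531-18607590 and chr2:18607987-18608046 and the Cbx7 probe at chr15:79746240-79746299. The Ring1 probe lies at chr17:34158164-34158223, Ezh2 at chr6:47480307-47480366, Eed at chr7:97103264-97103323, Suz12 at chr11:79847251-79847310 and Jarid2 at chr13:45016247-45016306. Each chromosome matched that of the gene in RefSeq. Annotation of exons and untranslated regions on mm9 was not used here. In the Cbx7 probe 20% of bases were G or C, a lower share than in 99.7% of the array's probes.

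Cbx2 rose in DKO lines. Its log2 level was 9.06 in WT 6, 9.24 in WT 92, 9.25 in WT 7 and 9.49 in WT 94, and 9.98 in DKO 51, 9.90 in DKO 61, 10.01 in DKO 60 and 10.04 in DKO 59. Every DKO line lay above every WT line, across the dyes, and the DKO lines were close together (SD 0.0592, n = 4) while the WT lines were more spread (SD 0.175, n = 4). The log2 ratio was 0.92, 0.67, 0.76 and 0.55 in the pairs DKO 51/WT 6, DKO 61/WT 92, DKO 60/WT 7 and DKO 59/WT 94. The mean was 0.72 (SE 0.0792), a 1.65-fold rise with a 95% interval of 1.44 to 1.90, and passed the test (limma, adjusted p = 0.0217 over all genes). On repeat arrays of the same lines the Cbx2 ratio differed by 0.0793 or less.

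Kdm2b also rose, by less. The brighter of its 2 probes read 13.44, 13.09, 13.34 and 13.30 in WT 6, WT 92, WT 7 and WT 94, and 13.77, 13.62, 13.71 and 13.64 in DKO 51, DKO 61, DKO 60 and DKO 59. The groups did not overlap here either. Its log2 ratios were 0.33, 0.53, 0.37 and 0.34 in the same order of pairs, with a mean of 0.39 (SE 0.0634), or 1.31-fold (95% interval 1.17 to 1.47; limma adjusted p = 0.0422). The second probe, which belongs to the same gene and is dimmer, had ratios of 0.21, 0.40, 0.25 and 0.20 and a mean of 0.27 (SE 0.0643). All 4 were positive, but it did not pass when every probe was tested on its own (limma adjusted p = 0.0872).

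Cbx2 and Kdm2b were the 2 of 9 tested members past the threshold, both upward, where 2.85% of all genes rose and 1.71% fell. Both calls were lost when any of the 4 pairs was left out, when sex (which is also the slide) was a term of the model, when the variance prior followed intensity, and when the background correction was fitted on all spots. Cbx2 had adjusted p = 0.0544 to 0.147 in those fits and log2 ratios of 0.66 to 0.78, and Kdm2b adjusted p = 0.0596 to 0.182 with ratios of 0.35 to 0.41. Leaving out the pair DKO 59/WT 94 gave the highest adjusted p for both genes. With a pair left out, with the sex term or with the intensity prior, limma called 0 of all genes (3621 to 5496 at an unadjusted p under 0.05), so these fits also end the calls given below per gene for other Polycomb genes; calls per probe were not refitted this way. Kdm2b, but not Cbx2, also lost its call with the scanner software's log ratio (adjusted p = 0.101) and with a stricter filter on dim probes (adjusted p = 0.0512).

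**Figure D1:**
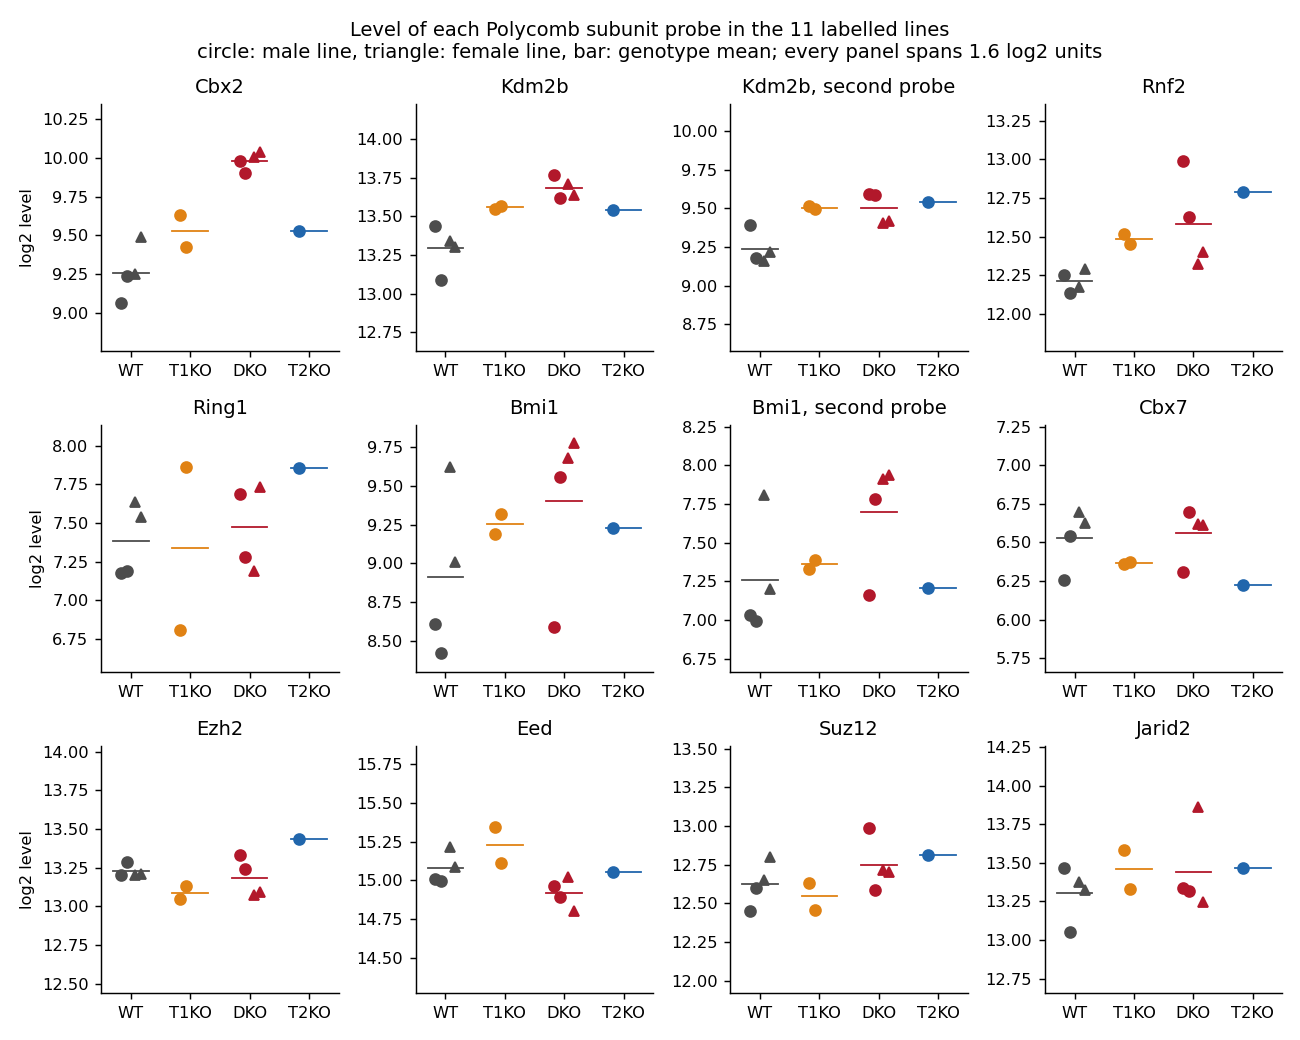
Log2 level (vertical axis) of each of the 12 member probes in the 11 labelled lines, by genotype (horizontal axis); circles are male lines, triangles female lines and bars genotype means, and every panel spans the same height. For Cbx2 the DKO lines sit at 9.90 to 10.04 and the WT lines at 9.06 to 9.49, while for Ezh2 all lines but T2KO 16 lie between 13.05 and 13.33.

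Rnf2, the ubiquitin ligase that carries most PRC1 activity in ES cells, separated DKO from WT lines without passing the test. WT levels were tight, at 12.25, 12.13, 12.17 and 12.29, and DKO levels were 12.99, 12.63, 12.32 and 12.40, in the order of lines used above. The lowest DKO line (12.32) lay only just above the highest WT line (12.29), across the dyes. On repeat arrays of the same lines the Rnf2 ratio differed by up to 0.0688. Every DKO line lay above every WT line, which was so for 3 members (Cbx2, Kdm2b and Rnf2) and for 7.54% of all genes. The same 3 had a positive ratio in all 4 pairs, as did 20.2% of genes, and an unadjusted limma p under 0.05, as did 26.2%. The DKO lines differed among themselves: the male pairs had log2 ratios of 0.73 and 0.50 and the female pairs 0.15 and 0.11. The mean was 0.37 (SE 0.124; limma adjusted p = 0.146). The difference between male and female pairs was 0.48 (SE 0.143), with an unadjusted limma p of 0.0249 and adjusted p = 0.83, so it does not pass, and 5.14% of genes had an unadjusted p under 0.05 in that comparison. Sex and slide cannot be told apart in it.

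Bmi1, a partner of the ligases best known as a driver of self-renewal in adult stem cells, varied more between lines on its brighter probe than any other member, over a range of 1.36 on the log2 scale. Its second probe ranged over 0.94, less than Ring1 (1.05) and Cbx2 (0.98). In WT 6 and WT 92 the brighter probe read 8.61 and 8.42, in WT 7 and WT 94 9.62 and 9.01, in DKO 51 8.59 and in DKO 61, DKO 60 and DKO 59 9.56, 9.68 and 9.78. Both male WT lines and the male DKO 51 were thus low, WT 7 lay above DKO 61, and the groups overlapped. The pairs fell into ratios near 0 (-0.02 in DKO 51/WT 6 and 0.06 in DKO 60/WT 7) and high ratios (1.14 in DKO 61/WT 92 and 0.77 in DKO 59/WT 94). The mean of 0.49 (SE 0.220) did not pass (limma adjusted p = 0.235) and was 0.27 without the pair DKO 61/WT 92. The second probe, although dim, repeated the pattern with ratios of 0.13, 0.79, 0.10 and 0.74 in DKO 51/WT 6, DKO 61/WT 92, DKO 60/WT 7 and DKO 59/WT 94, and a mean of 0.44 (SE 0.151; limma adjusted p = 0.152 with every probe tested on its own).

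Ring1, the other ligase, was dim, and its pairs went both ways. WT levels were 7.18, 7.19, 7.64 and 7.54 and DKO levels 7.69, 7.28, 7.19 and 7.73, so the groups overlapped in part, with DKO 51 and DKO 59 above all WT lines and WT 6 below all DKO lines. The ratios ran from -0.45 in DKO 60/WT 7 to 0.51 in DKO 51/WT 6, with a mean of 0.09 (95% interval -0.32 to 0.49; limma adjusted p = 0.761). Its spots were 183 to 303 intensity units in Cy3 before correction, and it was not well above background on either T1KO 99 array.

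Cbx7, the chromodomain protein usually described as the main one of PRC1 in ES cells, could not be followed. Its single probe was not well above background on any array in any labelled channel. The levels, 6.23 to 6.70 over the 11 lines, are therefore at the limit of the measurement and give no fold change. They do not show that the gene is silent.

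None of the 4 PRC2 subunits passed the limma test in DKO over WT. Ezh2 read 13.20, 13.29, 13.20 and 13.21 in the WT lines and 13.33, 13.24, 13.07 and 13.09 in the DKO lines. The male DKO lines were slightly above the female ones and the groups overlapped. The mean ratio was -0.04 with a 95% interval of -0.22 to 0.14 (limma adjusted p = 0.742). Suz12 read 12.45, 12.60, 12.65 and 12.80 in WT and 12.99, 12.59, 12.71 and 12.70 in DKO lines. Only the pair DKO 51/WT 6 stood apart, with a ratio of 0.54, the other pairs lying between -0.10 and 0.06. The mean was 0.12 (95% interval -0.18 to 0.43; limma adjusted p = 0.557).

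Eed was the member with the lowest ratio. Its levels were 15.01, 15.00, 15.22 and 15.09 in the WT lines and 14.96, 14.89, 15.02 and 14.80 in the DKO lines. DKO 60 overlapped the WT range, but within each pair the DKO line was the lower, by ratios of -0.05, -0.10, -0.20 and -0.29. A negative ratio in all 4 pairs was seen for this member alone and for 17.1% of all genes. The mean of -0.16 (95% interval -0.33 to 0.01) did not pass (limma adjusted p = 0.206). Its sign, like that of Ezh2, depended on the normalization: with median centring in place of loess the ratio of Eed was 0.39 (adjusted p = 0.0290) and that of Ezh2 0.34, while the median of all genes moved from 0.016 to 0.20.

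Jarid2 read 13.47, 13.06, 13.37 and 13.32 in the WT lines and 13.34, 13.32, 13.86 and 13.25 in the DKO lines. DKO 60 alone was high. The ratios were -0.13, 0.26, 0.49 and -0.07, and the mean of 0.14 did not pass (95% interval -0.17 to 0.45; limma adjusted p = 0.519). DKO 60/WT 7 is also the pair with the highest feeder and primed epiblast ratios, and the part of either in the Jarid2 value was not tested.

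**Figure D2:**
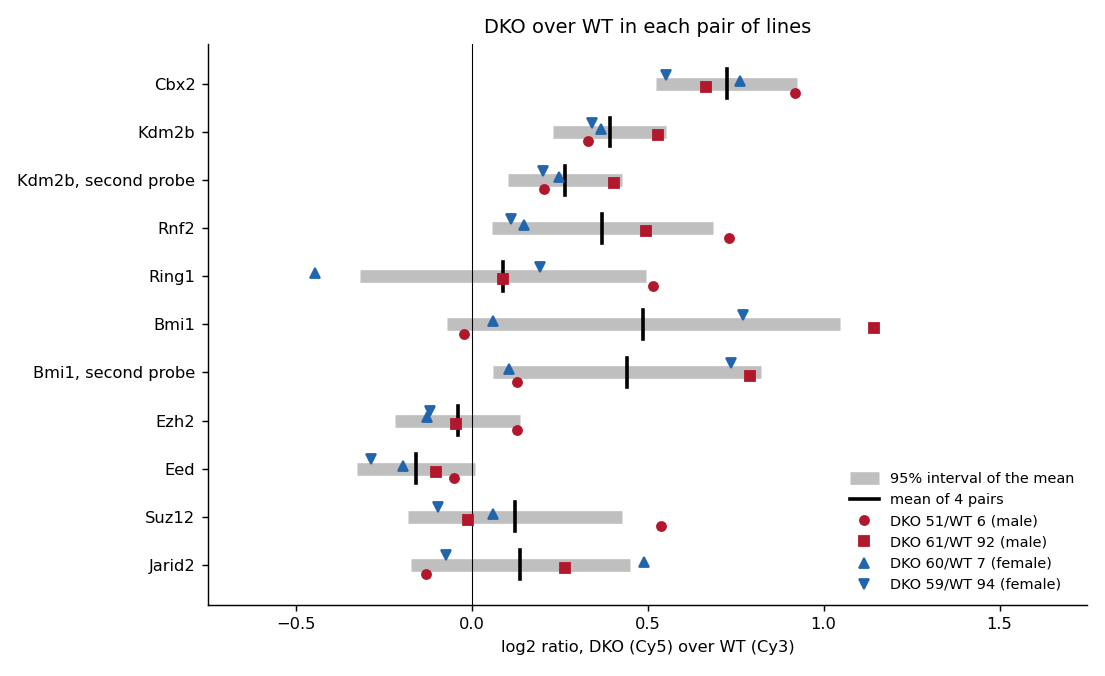
Log2 ratio of DKO over WT (horizontal axis) for the 11 probes of the 9 tested members; symbols are the 4 pairs of lines (red male, blue female), the black bar is their mean and the grey band its 95% interval from limma. All 4 symbols lie right of 0 for Cbx2 and both Kdm2b probes, and the male pairs of Rnf2 lie at 0.73 and 0.50 against 0.15 and 0.11 in the female pairs.

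Over the 9 tested members the median log2 ratio was 0.14, against 0.016 over all genes, and 7 were positive against 53.4% of all genes. The 5 PRC1 members tested had positive means, and of the PRC2 members Ezh2 and Eed had negative ones.

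The single knockouts address the loss of Tet1, in otherwise wild-type cells (T1KO against male WT) or in cells that also lack Tet2 (male DKO against T2KO); Tet2 loss alone was not tested. T1KO and WT lines shared the Cy3 channel and DKO and T2KO lines the Cy5 channel, so each of these 2 comparisons stays within a dye, although the T1KO and T2KO arrays lay on another slide than the male WT and DKO lines, and slide and genotype cannot be told apart in either. Where levels of T1KO are set beside DKO, or of T2KO beside WT, in the text below, the order crosses both dye and slide and is a description without a test. These comparisons reuse the male WT and male DKO lines of DKO over WT. T2KO over T1KO, also given below, rests on 1 pair of lines. Its errors, intervals and p-values therefore draw on the spread of the DKO/WT pairs, as do those of the estimate of Tet1 loss given below. No member passed the threshold in the comparison of T1KO with male WT, of male DKO with T2KO, of T2KO with T1KO, in the estimate of Tet1 loss (defined below), or in the difference between the sexes. In these comparisons limma called 0 genes, or, for male DKO against T2KO, 1 higher and 1 lower gene (0.00484% each) of all 20663. At an unadjusted p under 0.05 the members numbered 3 for T1KO against male WT (13.6% of all genes), 1 for male DKO against T2KO (12.7%), 0 for T2KO over T1KO (13.1%), 2 for Tet1 loss (10.3%) and 1 for the sexes.

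In level, across dyes and slides, Cbx2 lay between male WT and DKO in lines that lacked a single enzyme. It read 9.63 in T1KO 99, 9.42 in T1KO 65 and 9.53 in T2KO 16, above the male WT lines at 9.06 and 9.24 and below every DKO line. T1KO 65 was lower than the female line WT 94. T1KO exceeded male WT by 0.38 (SE 0.144; limma adjusted p = 0.350), male DKO exceeded T2KO by 0.41 (SE 0.128; limma adjusted p = 0.349), and T2KO over T1KO was 0.11 (SE 0.162; limma adjusted p = 0.820). An estimate of Tet1 loss is the T2KO over T1KO ratio taken from the male DKO over WT ratio and divided by 2. It holds only if the effects of Tet1 loss and Tet2 loss add on the log2 scale. The ratios lay on different slides, so only a dye effect equal on both cancels. For Cbx2 this estimate was 0.34 (SE 0.0995; limma unadjusted p = 0.0235, adjusted p = 0.425). Beside these values, in male DKO against T2KO all 8 primed epiblast markers were positive (median 0.72) and 3 of 15 ES cell markers were (median -0.34), and in T1KO against male WT 11 of 12 primitive endoderm markers were positive (median 0.31). For Tet1 loss 7 of the 8 primed epiblast and 11 of the 12 primitive endoderm markers were positive (medians 0.44 and 0.40). Of the feeder markers 3 of 20 were positive in T1KO against male WT and 2 of 20 for Tet1 loss (medians -0.18 and -0.09). Of the ES cell markers 4 of 15 and 2 of 15 were (medians -0.12 and -0.20). Over all genes 51.4% were positive in male DKO against T2KO, 49.6% in T1KO against male WT and 50.7% for Tet1 loss. Their part in the Cbx2 values was not tested.

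Kdm2b showed the same order at a smaller scale. Its brighter probe read 13.55 in T1KO 99, 13.57 in T1KO 65 and 13.54 in T2KO 16, between the highest WT line (13.44) and the lowest DKO line (13.62), again across dyes and slides. T1KO exceeded male WT by 0.29 (SE 0.142; limma adjusted p = 0.424), which became 0.12 without WT 92 and 0.47 without WT 6, and male DKO exceeded T2KO by 0.15 (SE 0.140; limma adjusted p = 0.676), which became 0.0718 without DKO 51 and 0.23 without DKO 61. The second probe placed T1KO at 9.52 and 9.50 and T2KO at 9.54, within the range of the DKO lines (9.41 to 9.60). Cbx2 and Kdm2b were the members higher in both T1KO than in both male WT lines and in both male DKO lines than in T2KO, as were 5.88% of all genes. They were also the members higher in both male DKO lines than in T2KO, as were 38.5% of genes, while Eed, Ezh2, Jarid2 and Ring1 were lower there in both, as were 35.5%.

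In Rnf2 the single knockouts, 12.52 in T1KO 99, 12.45 in T1KO 65 and 12.79 in T2KO 16, were above every WT line and also above both female DKO lines, an order that crosses dyes and slides. T1KO exceeded male WT by 0.29 (SE 0.110; limma adjusted p = 0.347), and male DKO and T2KO differed by 0.02 (95% interval -0.48 to 0.52). Bmi1 was higher in T1KO (9.19 and 9.32) than in male WT lines by 0.74 (SE 0.216, limma adjusted p = 0.286). On the second probe the difference was 0.35 (limma adjusted p = 0.504). In the same dye, both T1KO lines lay between the female lines WT 94 (9.01) and WT 7 (9.62) on the brighter probe. The level of Bmi1 in T2KO 16 was 9.23. Both T1KO lines lay above both male WT lines for 5 of the 9 members (Bmi1, Cbx2, Eed, Kdm2b and Rnf2) and for 23.8% of all genes. They lay below for Ezh2, as for 25.3% of genes.

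Among PRC2 subunits, Ezh2 read 13.05 in T1KO 99 and 13.13 in T1KO 65, and 13.43 in T2KO 16, which was above all other lines. The T2KO over T1KO ratio was 0.30 (95% interval -0.05 to 0.66; limma adjusted p = 0.430). Suz12 had a ratio of 0.35 in the same pair (95% interval -0.26 to 0.97; limma adjusted p = 0.564) and Jarid2 0.13 (adjusted p = 0.867). Eed read 15.34 in T1KO 99, the highest of all lines, and 15.11 in T1KO 65, against 15.05 in T2KO 16. This pair had a median ratio of -1.21 for primed epiblast and 0.36 for ES cell markers, and the part of these in the PRC2 values was not tested.

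**Figure D3:**
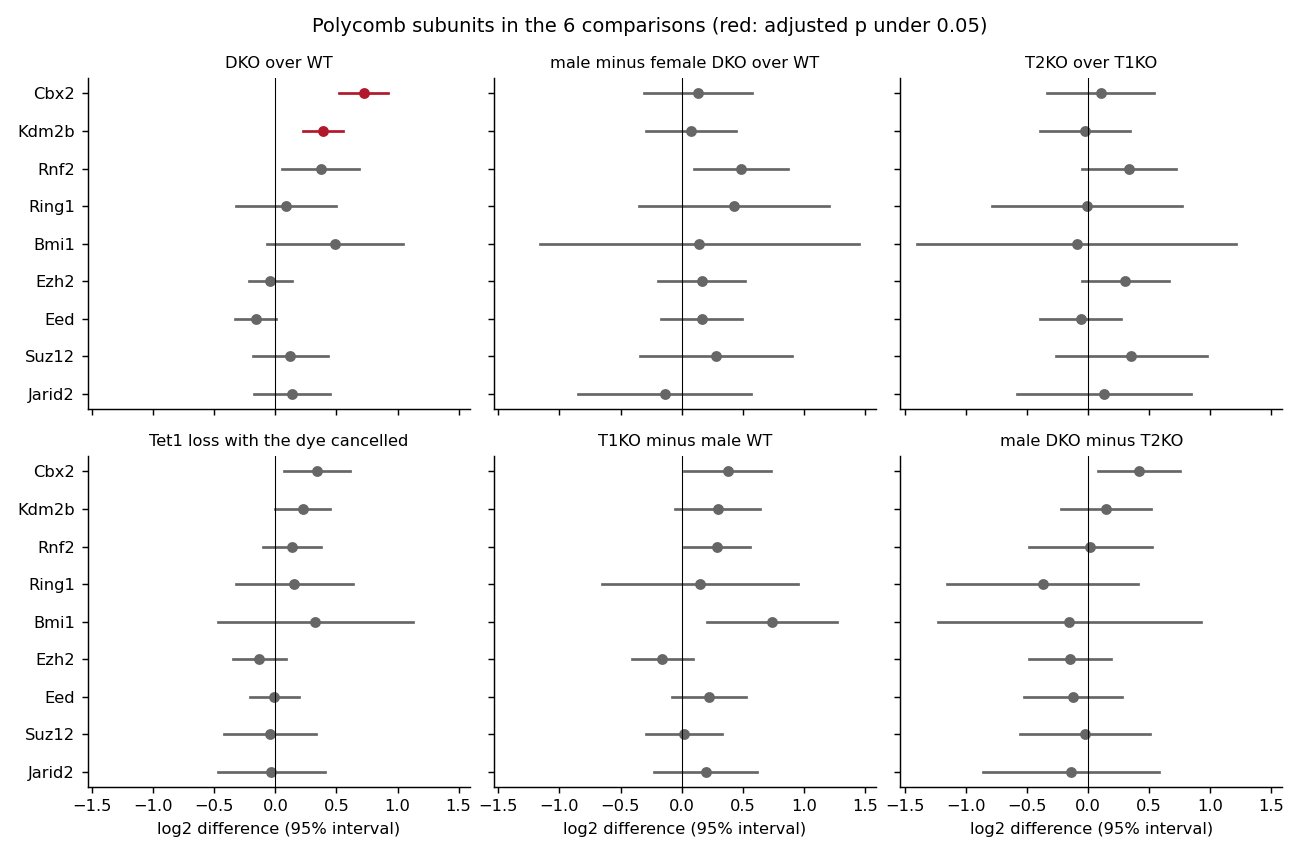
Log2 difference (horizontal axis, points) with its 95% interval (lines) of the 9 tested members (rows) in each of the 6 comparisons, red where limma's adjusted p is under 0.05. Only Cbx2 and Kdm2b in DKO over WT are red; the interval of Cbx2 also lies above 0 for Tet1 loss, T1KO minus male WT and male DKO minus T2KO, where no adjusted p passes.

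The rest of the Polycomb system was read from lists. Of 21 other PRC1 genes 20 had a tested probe. For DKO against WT the log2 ratios of these 20 centred on a median of 0.10, and 18 were positive, against 53.4% of all genes. Bcorl1, a corepressor related to Bcor, read 7.70, 7.95, 8.02 and 7.85 in WT 6, WT 92, WT 7 and WT 94 and 8.72, 8.57, 8.25 and 8.40 in DKO 51, DKO 61, DKO 60 and DKO 59. The groups did not overlap, but the mean ratio of 0.61 (SE 0.135) did not pass (limma adjusted p = 0.0750), and its second probe averaged 0.15. Yaf2, which like its relative Rybp takes the place of a Cbx protein in variant PRC1, had pair ratios of 0.27, 0.23, 0.72 and 0.43. All were positive, and the mean of 0.41 (SE 0.101) did not pass either (limma adjusted p = 0.0865). Its dimmer probe was steadier over the pairs, at 0.34, 0.31, 0.33 and 0.38, and passed when every probe was tested on its own (limma adjusted p = 0.0436).

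Of 8 other PRC2 genes 0 rose and 0 fell, with a median of -0.07 and 4 positive. The smallest adjusted p belonged to Phf1, a Polycomb-like subunit, which had a ratio of -0.37 (SE 0.104; limma adjusted p = 0.110) and was lower in DKO in all 4 pairs. Ezh1, the second methyltransferase, had -0.24 (SE 0.110; limma adjusted p = 0.235), with -0.45 in both female pairs and 0.06 and -0.12 in the male ones, and its other probes averaged 0.01 and -0.10. Of 20 genes for enzymes that remove Polycomb marks or oppose them, or for partners of such enzymes, 2 rose and 0 fell (2.85% and 1.71% of all genes) with a median of 0.03. Kdm6b, which demethylates the histone H3 mark of PRC2, rose by 0.44 (SE 0.0742; limma adjusted p = 0.0454), and Ash1l, a histone methyltransferase of the Trithorax group, by 0.52 (SE 0.0832; limma adjusted p = 0.0419). Both calls were also lost with the background correction on all spots, the software's ratio, the authors' value table and the stricter filter (adjusted p = 0.0529 to 0.0958 for Kdm6b and 0.0512 to 0.0813 for Ash1l).

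Of 35 developmental genes known as Polycomb targets in ES cells 30 were tested, of which 3 were called higher and 0 lower (2.85% and 1.71% of all genes), with a median of 0.22 and 21 positive (53.4% of all genes). Genes that DKO arrays alone read well above background also pass the filter, and such genes can hardly come out lower. How many of the 30 entered this way was not counted, so these counts and the median support nothing about the list. Wt1 had a ratio of 0.93 (SE 0.136; limma adjusted p = 0.0355) and Eomes 0.88 (SE 0.153; limma adjusted p = 0.0463). The Eomes call was also lost with the background correction fitted on all spots (adjusted p = 0.0777), the software's log ratio (0.0566) and the stricter filter (0.0539). The third, Neurog2, lay too close to background on all 6 WT arrays and passed the filter through other arrays alone, so its call (limma adjusted p = 0.0217) could hardly have gone the other way and supports nothing. Its DKO mean, in Cy5, was at least 1.43-fold above the floor of the WT arrays, in Cy3, so dye and genotype cannot be told apart in it. In T2KO 16, also in Cy5, Neurog2 read 6.96, against 6.56 and 6.64 in the T1KO lines in Cy3. Eomes was highest in DKO 60 (10.07), with a ratio of 1.44 in the pair that was also highest for the primed epiblast list. The median of the 30 was 0.35 and 0.09 in the male and 0.09 and 0.27 in the female pairs. In the other 5 comparisons 0 genes of the 4 lists passed.

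**Figure D4:**
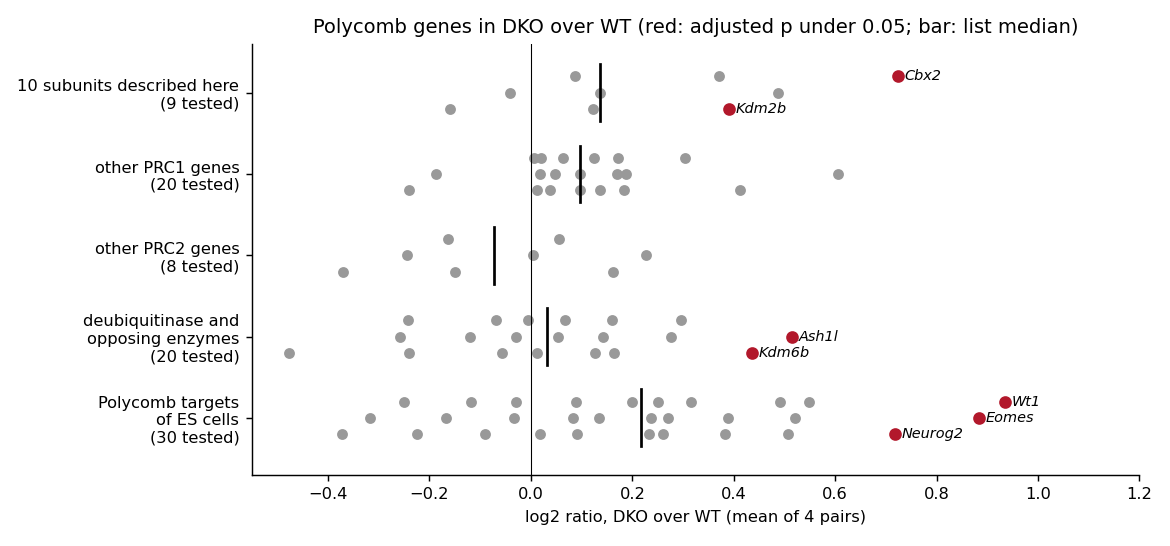
Log2 ratio of DKO over WT (horizontal axis) of each tested gene of 5 lists; red points passed limma's adjusted p of 0.05 and black bars are list medians. The 7 red points all lie right of 0, Wt1 farthest at 0.93, and the other PRC2 genes hold none. Among the 7, Neurog2 lay too close to background on the WT arrays and could hardly have fallen.

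Kdm2b acts where CpGs are dense, and its own gene starts in such sequence. RefSeq (build GRCm38.p6) lists 13 windows of 300 bases around the starts of 9 of the 10 members, and Cbx2 was not matched. Every one was CpG-rich, with 17 (Eed) to 49 (Kdm2b) CpG dinucleotides and a median of 30, against a median of 7 over all 32851 windows, of which 31.4% held at least 17. CpG was counted as the letters CG, which read the same on both strands. Kdm2b, the member that rose and has windows, has 4 windows with 18, 28, 47 and 49 CpGs, of which those with 28 and 49 are shown with each CpG in capitals, minus strand, from 250 bases before to 50 after the start.
Kdm2b, chr5:122989050-122989349: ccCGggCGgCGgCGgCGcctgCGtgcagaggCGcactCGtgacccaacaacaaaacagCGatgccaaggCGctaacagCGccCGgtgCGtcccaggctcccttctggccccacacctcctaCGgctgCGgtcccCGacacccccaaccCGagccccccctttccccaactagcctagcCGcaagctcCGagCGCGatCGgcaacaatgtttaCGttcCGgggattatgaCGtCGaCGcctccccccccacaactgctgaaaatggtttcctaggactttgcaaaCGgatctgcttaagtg
Kdm2b, chr5:122900301-122900600: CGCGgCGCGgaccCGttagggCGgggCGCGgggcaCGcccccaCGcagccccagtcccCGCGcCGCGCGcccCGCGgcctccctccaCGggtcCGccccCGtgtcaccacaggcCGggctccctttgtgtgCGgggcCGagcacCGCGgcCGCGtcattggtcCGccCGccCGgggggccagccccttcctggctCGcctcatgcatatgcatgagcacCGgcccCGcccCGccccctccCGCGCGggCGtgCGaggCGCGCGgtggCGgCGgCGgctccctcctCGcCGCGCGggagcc
The 2 windows lie in separate places of the gene. The window with 18 CpGs is at the 70.3 percentile of all windows. The arrays give no reading per start, and DNA methylation was not measured in these files.

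Across the 11 lines, after each gene's mean within a dye was removed, the genes most like Cbx2 among 20652 were a transcript known only by its array name (Pearson r = 0.963), Gnai1 (0.930), Akr1b10 (0.912), a second such transcript (0.907) and Nup62cl (0.904). Those most like Kdm2b were Rnf168 (0.912), an array-named transcript (0.903), Ablim3 (0.895), a transcript known by an Ensembl name (0.880) and Atpif1 (0.859). Cbx2 and Kdm2b had r = 0.46 with each other. Among members the highest was 0.64, for Eed with Jarid2, and the lowest -0.72, for Cbx2 with Ezh2. The lines share genotypes, slides and normalization, and these values only describe them.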

How the data were processed

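RNA of the 11 labelled lines was measured on 10 two-colour arrays. The members and gene lists were chosen with earlier results of these data known. Per the file headers, the scanner output as deposited gives each spot's mean intensity and median local background intensity (Agilent Feature Extraction 10.1.1.1), not normalized, and a log10 ratio of Cy5 over Cy3 that the software had processed, deposited as written. The authors' deposited value table tracked log2 of Cy5 over Cy3 in scale and direction (slope 0.835 to 0.882 on the log2 of the software's ratio, r = 0.925 to 0.971). Its column medians were 0.00178, 0.00341, 0.00544, 0.00499, 0.00321, 0.00752, 0.00669, 0.00565, 0.00212 and 0.00685, how it was normalized or centred is not stated in the sources used here, and it held 10 of the 12 member probes.

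Background was corrected with normexp (offset 50), fitted after leaving out gene spots below their local background (71 to 122 on each array), followed by loess within arrays and Aquantile between arrays (limma 3.58.1, R 4.3.3). The excluded Cy5 sample took part in this normalization. Control spots had no weight, and spots marked as outliers by the scanner software (173 to 337 per array) were left out; no member spot was among them. Spots of a probe and repeat arrays of a pair were averaged, which left 4 DKO/WT pairs and 1 T2KO/T1KO pair. A gene was represented by its brightest tested probe. Tests were lmFit and eBayes, two-sided, with Benjamini-Hochberg adjustment over all genes at 0.05: ratios of the pairs against 0, a mean per group of pairs, or levels of lines within a dye. All members are named, and of each other list those whose DKO over WT test passed or else the 2 with the smallest adjusted p. A gene of the other PRC1 list, left out of that list's values and plot, and a probe sequence are not reported here. The p-values of DKO over WT measure the spread of the pair ratios. For T2KO over T1KO, Tet1 loss and the difference between the sexes the spread is also that of the DKO/WT pairs. Those of the comparisons within a dye measure the spread between lines. There the female WT or female DKO lines entered for the spread only. The number of arrays limits the precision. The scripts were tested on simulated data. There, changes of 0.5 on the log2 scale were recovered for 38.8% of so changed probes in DKO over WT and 0% in T1KO minus male WT. False calls numbered 3 and 14 in these comparisons. Few of the 25853 simulated probes were changed, and both comparisons took their spread from the DKO/WT pairs. The shares recovered need not hold for the data. Plots were drawn with matplotlib 3.10.9.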

Additional observations from a re-analysis of the deposited data

Results flagged for a closer look

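Among 33 groups of 4 values of member probes (levels in WT, levels in DKO, pair ratios), 2 had a value far from the other 3. Chance gives about 1 in 20, so 2 of 33 is close to what chance alone would give. Ezh2 in WT 92 was 13.29 on the log2 scale against 13.20 to 13.21 in the other WT lines, a gap of 0.895 of the range in a group that is tight overall. Jarid2 in DKO 60 was 13.86 against 13.25 to 13.34 in the other DKO lines, a gap of 0.857 of the range. The cause of either was not tested.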

How the results depend on the processing

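In DKO over WT, 2 members passed. The count was 0 with normexp fitted on all spots, 0 with sex and slide as a term, 0 with a variance prior that follows intensity, and 0 to 0 with each pair left out in turn. It was 1 with the scanner software's log ratio, 1 with only probes well above background in both channels on every array, and 5 with median centring in place of loess (Cbx2, Kdm2b, Rnf2, Eed and Jarid2). It stayed at 2 with the authors' value table, without a filter, with every probe on its own, and with all arrays kept and the pair as a random block (correlation 0.926). Over all genes, calls numbered 588 rises and 354 falls in the first fit, 203 and 161 with normexp on all spots, 521 and 167 with the software's ratio, 342 and 195 with the authors' table, 259 and 185 with the strict filter, 681 and 502 without a filter, 764 and 708 with the random block, 6207 and 504 with median centring, and 0 and 0 with the sex term, the intensity prior or a pair left out. In the other 5 comparisons the count of members stayed at 0 in each alternative run. Cbx2 and Kdm2b kept a positive DKO over WT ratio in all 13 alternatives (0.66 to 0.96 and 0.32 to 0.79). Most of these could hardly change the sign. The filters, the sex term and the intensity prior leave the ratio as it is, and all 4 pairs were positive for both genes. The highest values came with median centring, which also moved the median gene. Relative to all genes they were 0.77 for Cbx2 and 0.60 for Kdm2b.

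Some signs changed, most of them of small values. Median centring put the median gene of DKO over WT at 0.196. Under it the DKO over WT ratio was 0.34 for Ezh2, 0.39 for Eed and 0.11 for Ezh1, and the T2KO over T1KO ratio 0.47 for Kdm2b, 0.0807 for Ring1, 0.16 for Bmi1 and 0.59 for Eed. With the software's ratio, Ring1 was -0.0796 in DKO over WT; in T2KO over T1KO Kdm2b was 0.0216, Ring1 0.13 and Eed 0.0194; and for Tet1 loss Eed was 0.0062 and Suz12 0.000604. With normexp on all spots Kdm2b was 0.12 in T2KO over T1KO, Suz12 -0.0033 in T1KO minus male WT and Rnf2 -0.0661 in male DKO minus T2KO, where quantile normalization gave -1.47e-05 for Rnf2. With a pair or line left out, DKO over WT ranged from -0.0543 to 0.27 for Ring1 and -0.0163 to 0.20 for Suz12; male minus female from -0.0234 to 0.17 for Kdm2b, -0.44 to 0.73 for Bmi1 and -0.42 to 0.14 for Jarid2; Tet1 loss from -0.0215 to 0.00506 for Eed, -0.18 to 0.0924 for Suz12 and -0.13 to 0.0666 for Jarid2; T1KO minus male WT from -0.37 to 0.68 for Ring1, -0.0689 to 0.10 for Suz12 and -0.00939 to 0.40 for Jarid2; and male DKO minus T2KO from -0.16 to 0.20 for Rnf2, -0.64 to 0.33 for Bmi1 and -0.22 to 0.18 for Suz12. A lone line was assumed to vary like the others. Why these values moved was not tested. No paired analysis was possible because the replicate numbers of the labels count repeat arrays of the same lines; the pairing of DKO and WT lines within arrays is a different one, which the DKO over WT test uses throughout. Dim probes (Cbx7, Ring1, the second Bmi1 probe) limit what signal over background allows: over all member probes repeat arrays differed by 0.0508 in the median log2 ratio, with Cbx7 up to 0.742.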
